A study of Mus musculus with 6 samples.

Results

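The genes described here mark macrophages and monocytes, and they were measured in RNA of renal tubular epithelial cells isolated from injured mouse kidneys. The list held 30 genes, chosen by symbol, and each was read from the transcript cluster annotated with it. Such a cluster stands roughly for a gene on this array. Of the 30 genes, 28 had a named cluster, 1 each, among 22206 clusters. Cd68 and Cd74 had no cluster named for them alone in the annotation used and are not described. All mice had gone through 30 min of renal ischemia and 24 h of reperfusion. The vehicle group (3 arrays, labelled IR) was compared with the PT2385 group (3 arrays, labelled IRPT). PT2385 inhibits hypoxia-inducible factor HIF-2α. Mice received 10 mg/kg 16 h ahead of the operation, with further doses 1, 8 and 20 h afterwards. The injection protocol spells the drug PT2384, and that IRPT is the drug arm was read from the titles. The labels give no strain, age or sex, and samples without ischemia were not analysed here.

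Macrophages are phagocytes of tissues. In the kidney, resident macrophages live between the tubules, and after ischemia monocytes enter from the blood and neutrophils with them. Resident cells are known for complement C1q, F4/80 (Adgre1) and the fractalkine receptor Cx3cr1. Classical monocytes are known for the chemokine receptor Ccr2 and for Ly6C. MHC class II molecules, which show peptides to T cells, mark antigen-presenting cells of several kinds. Lyz2, Lyz1, Itgam and Cd14 are not limited to monocytes: neutrophils also use lysozyme and the integrin Itgam, and injured tubular cells can make Cd14.

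The samples were cells released from kidney by collagenase, and the labels' protocols name no sorting step. Of measured proximal tubule genes, 11 of 11 lay above the 95th percentile of the negative control rows in all 6 arrays, beside 32.1% of all clusters. So did 8 of 8 endothelial genes and 5 of 6 fibroblast and pericyte genes, so the isolates also held RNA of other kidney cells. Passing this level therefore does not set the labelled cell type apart from the others. With bulk RNA, fewer cells of a type and less RNA per cell cannot be told apart. Nor can treatment and sex. The Y-linked gene Eif2s3y had log2 signals of 9.09, 9.24 and 9.28 under vehicle and 3.27, 3.04 and 3.34 under PT2385. Every difference below was measured between groups that differ in this way too. Of all clusters, 184 passed the threshold of an adjusted p under 0.05 in limma, which is 0.829%, with 0.495% lower and 0.333% higher.

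The upstream sequences of 4 members are shown as a description, and no difference reported here depends on them. Lyz2 was the only member past the threshold, Lyz1 is its neighbouring paralog, Itgam had the next smallest p, and H2-Aa stands for the MHC class II genes. Each is the 250 bases before the gene's start, 5′ to 3′ on the gene's strand, from RefSeq on GRCm38.p6. They lie at chr10:117282273-117282522 (minus strand) for Lyz2, chr10:117292869-117293118 (minus strand) for Lyz1, chr7:128062390-128062639 (plus strand) for Itgam and chr17:34287824-34288073 (minus strand) for H2-Aa. Capitals mark GAGGAA, a core recognised by the myeloid factor PU.1, in Itgam, and ATTGG, the core of the Y box of MHC class II promoters, in H2-Aa and Lyz1, on either strand.
Lyz2: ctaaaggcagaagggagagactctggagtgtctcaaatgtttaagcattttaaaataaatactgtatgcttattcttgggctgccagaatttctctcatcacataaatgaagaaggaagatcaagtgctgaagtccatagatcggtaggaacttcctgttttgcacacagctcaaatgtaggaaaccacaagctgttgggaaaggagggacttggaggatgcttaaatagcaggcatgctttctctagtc
Lyz1: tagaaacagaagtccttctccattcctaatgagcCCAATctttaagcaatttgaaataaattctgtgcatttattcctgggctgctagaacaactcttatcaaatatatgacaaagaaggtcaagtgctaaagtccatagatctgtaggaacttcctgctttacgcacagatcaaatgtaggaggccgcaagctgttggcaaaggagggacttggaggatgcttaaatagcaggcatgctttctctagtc
Itgam: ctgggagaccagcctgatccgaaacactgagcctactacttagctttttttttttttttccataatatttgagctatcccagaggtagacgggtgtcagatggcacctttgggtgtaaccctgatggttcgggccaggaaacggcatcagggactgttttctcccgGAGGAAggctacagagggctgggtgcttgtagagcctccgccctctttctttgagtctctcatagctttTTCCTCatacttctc
H2-Aa: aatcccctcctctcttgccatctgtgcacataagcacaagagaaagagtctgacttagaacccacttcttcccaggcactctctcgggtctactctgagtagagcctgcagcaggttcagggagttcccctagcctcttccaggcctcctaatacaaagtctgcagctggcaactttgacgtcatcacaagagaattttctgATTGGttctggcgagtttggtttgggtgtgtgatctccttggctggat

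The Lyz2 and Lyz1 stretches matched at 200 of 248 aligned bases (80.6%). In Itgam the GAGGAA motif began 84 bases before the start on the gene's strand, and its reverse, TTCCTC, 15 bases before it. In H2-Aa the ATTGG motif began 48 bases before the start. Lyz1 held its reverse, CCAAT, 216 bases before its start. The same search found GAGGAA or TTCCTC in 12 of the 22 list genes with a promoter in the table, against 25.9% of all 27025 genes there. ATTGG or CCAAT was in 9 of the 22, against 37.5% of all genes. The 22 genes with a promoter include Cd68, which was not measured. Neither motif as searched was in the Lyz2 stretch. These matches are descriptions of letters and not of binding.

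Most of the list lay within the range of the array's control rows. The 5222 rows named as negative controls had array medians of 4.28 to 4.47 on the log2 scale and 95th percentiles of 7.13 to 7.25. Lyz2, Ly6c2, Cd14, H2-Ab1, Fcgr3 and the lysosomal protease gene Ctss lay above the 95th percentile in all 6 arrays, which makes 6 of 28, beside 32.1% of all clusters. Another 7 lay above it in some arrays and 15 in none. Of the 28, 27 lay above the negative control median in all 6 arrays. The exception was Aif1, the gene of a macrophage actin-binding protein. Differences of genes within the control range can be understated, and signals of different genes are not compared because their probes differ.

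**Figure D1:**
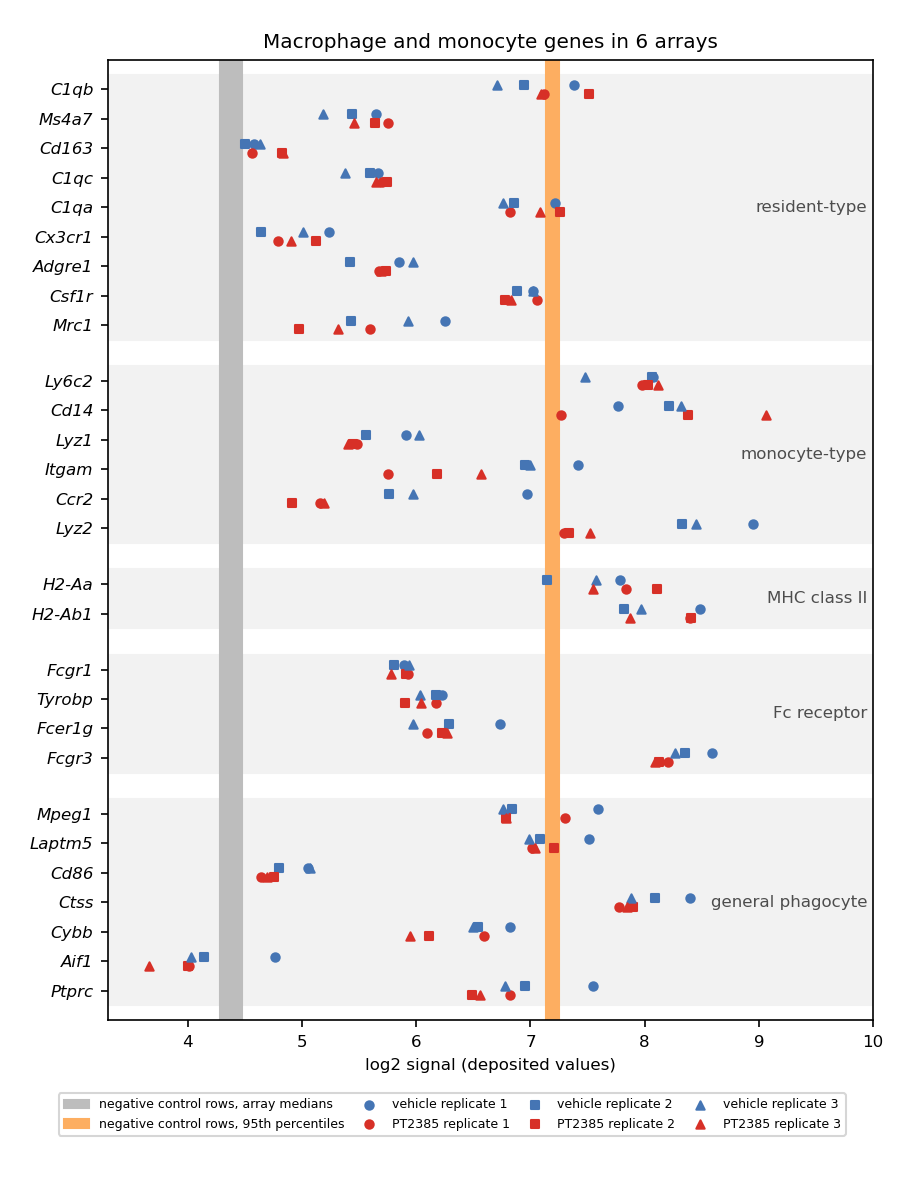
Log2 signal of each of the 28 members in each array (blue, vehicle; red, PT2385; symbol shape, replicate), grouped by role, with the array medians (grey band) and 95th percentiles (orange band) of the negative control rows. Only 6 members lie to the right of the orange band in every array, and the blue and red points of Lyz2 do not overlap.

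Across the 28 members, 1 was lower in the PT2385 group past the threshold (0.495% of all clusters were) and 0 were higher in limma. Of the 28 differences (PT2385 minus vehicle, log2), 19 were negative and 9 positive, with a median of -0.10, where all clusters had 46.5% negative and a median of 0.02. At an unadjusted p under 0.05 in the same limma fit, 9 members were lower and 0 higher, beside 6.54% lower and 7.94% higher of all clusters. The groups did not overlap for 7 members, all with lower PT2385 values, where 20.7% of all clusters had groups apart, 9.13% with PT2385 lower. These were Lyz2, Lyz1, Ccr2, Itgam, Fcgr3, Cd86 and Aif1. The distance between the groups varied. The lowest vehicle and highest PT2385 values were 8.32 and 7.52 for Lyz2, but 4.794 and 4.758 for Cd86 and 4.023 and 4.008 for Aif1. The count of negative differences rested on 1 array: without vehicle replicate 1, 14 were negative and 14 positive, and the median was -0.01.

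Vehicle replicate 1 stood apart in these genes. It was the highest of the 6 arrays for 15 of 28 members (53.6%), against 12.1% of all clusters. The mean deviation of the 28 members from their 6-array averages was 0.34 in this array, -0.04 and -0.01 in the other vehicle arrays, and -0.11, -0.07 and -0.11 under PT2385. The array was highest for 6 of 7 general phagocyte genes, 3 of 4 Fc receptor genes, 3 of 6 monocyte-type genes and 2 of 9 resident-type genes. It was highest for 0 of 8 endothelial genes, 1 of 12 neutrophil genes and 3 of 12 T and NK cell genes. The spread between replicates was larger in the vehicle group than in the PT2385 group for 75.0% of members, against 49.2% of all clusters.

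**Figure D2:**
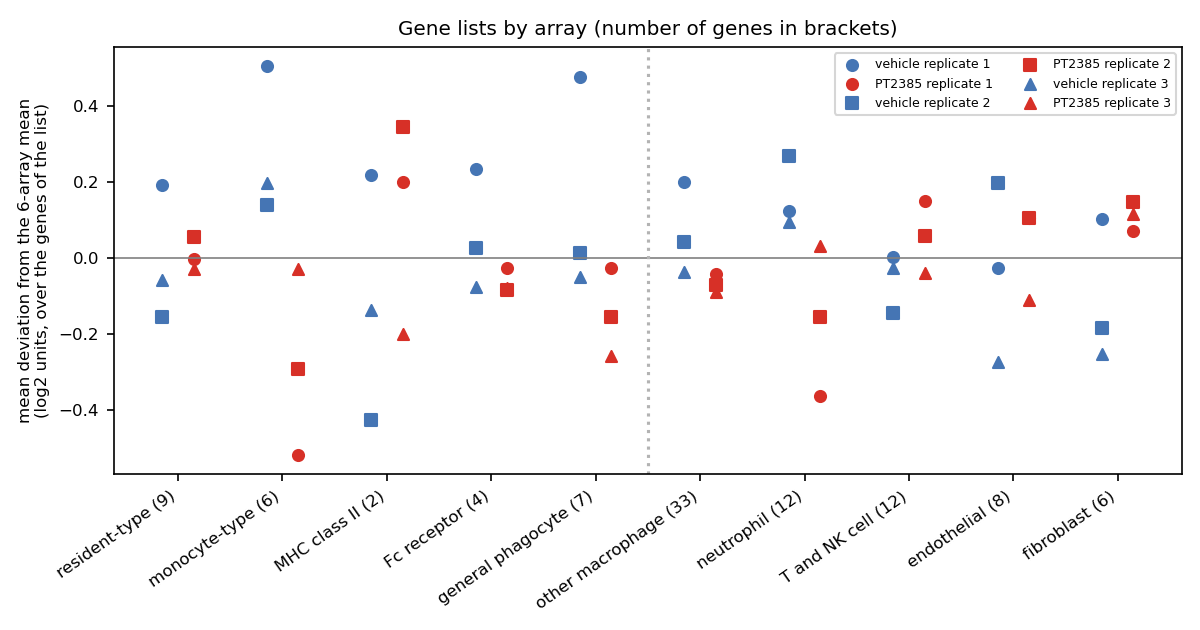
Mean deviation of each gene list from its 6-array average in every array, in log2 units, with blue for vehicle, red for PT2385 and the symbol shape for the replicate; the 5 lists left of the dotted line are the members. Vehicle replicate 1 is the top point in the monocyte-type (0.51) and general phagocyte (0.48) lists. The groups separate in the monocyte-type and neutrophil lists, and narrowly in the other macrophage list (lowest vehicle array -0.038, highest PT2385 array -0.042). They overlap in the resident-type and MHC class II lists.

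Among the monocyte-type genes, Lyz2, which encodes the lysozyme of macrophages and neutrophils, fell in the PT2385 group. Its log2 signal (cluster TC1000002929.mm.2, chromosome 10) was 8.95, 8.32 and 8.45 under vehicle and 7.30, 7.34 and 7.52 under PT2385. Every PT2385 array was below every vehicle array, and both groups lay above the 95th percentile of the negative controls. The difference was -1.19 (SE 0.16, limma adjusted p = 0.0202), or 2.27-fold. The call was lost without vehicle replicate 3 (adjusted p = 0.0635) and without PT2385 replicate 2 (adjusted p = 0.131), and over all alternatives the adjusted p ran from 0.00721 to 0.131. Lyz1, whose protein is the lysozyme of intestinal Paneth cells, had 5.91, 5.56 and 6.02 against 5.48, 5.44 and 5.40. Its difference was -0.39 (SE 0.13, adjusted p = 0.237), and its groups did not overlap either. The genes are close paralogs, and whether their probes read each other's transcripts was not tested.

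Ccr2, the receptor for the monocyte-recruiting chemokine CCL2, had 6.97, 5.76 and 5.97 under vehicle and 5.15, 4.91 and 5.19 under PT2385. The groups did not overlap, but vehicle replicate 1 stood about a log2 unit above the next vehicle array. All 6 values of Ccr2 lay at or below the 95th percentile of the negative controls. The difference was -1.15 (SE 0.28, adjusted p = 0.127). Without vehicle replicate 1 it was -0.78 (adjusted p = 0.0985). Itgam, the alpha chain of the integrin Mac-1 on monocytes, macrophages and neutrophils, had 7.41, 6.95 and 7.00 against 5.75, 6.18 and 6.57. Its groups did not overlap, and the PT2385 arrays were the more spread. Only in vehicle replicate 1 did it lie above the 95th percentile of the negative controls. The difference was -0.95 (SE 0.21, adjusted p = 0.0974), which became 0.0405 without PT2385 replicate 3. With array weights the adjusted p was 0.0492 for Ccr2 and 0.0348 for Itgam.

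The other monocyte-type genes had no such difference. Ly6c2, which encodes the Ly6C surface antigen, had 8.07, 8.07 and 7.48 under vehicle and 7.98, 8.03 and 8.11 under PT2385. The difference was 0.17 (95% interval -0.20 to 0.54, adjusted p = 0.667), an interval that leaves out falls of the size seen for Lyz2. The close paralog Ly6c1 is expressed by endothelium, and whether this cluster also reads it was not tested. Cd14, the co-receptor for bacterial lipopolysaccharide, had 7.77, 8.21 and 8.32 against 7.27, 8.38 and 9.06. The PT2385 arrays spanned a wider range than the vehicle arrays, on both sides of them, and the interval of the difference was wide (-0.74 to 1.02). Over the 6 monocyte-type genes, of which 4 were negative and 2 positive, the median difference was -0.67, beside 0.02 over all clusters. No gene had this value, which lies between Itgam (-0.95) and Lyz1 (-0.39). The median stayed between -0.78 and -0.56 when single arrays were left out. A separate list of 13 other monocyte genes had a median of -0.14.

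**Figure D3:**
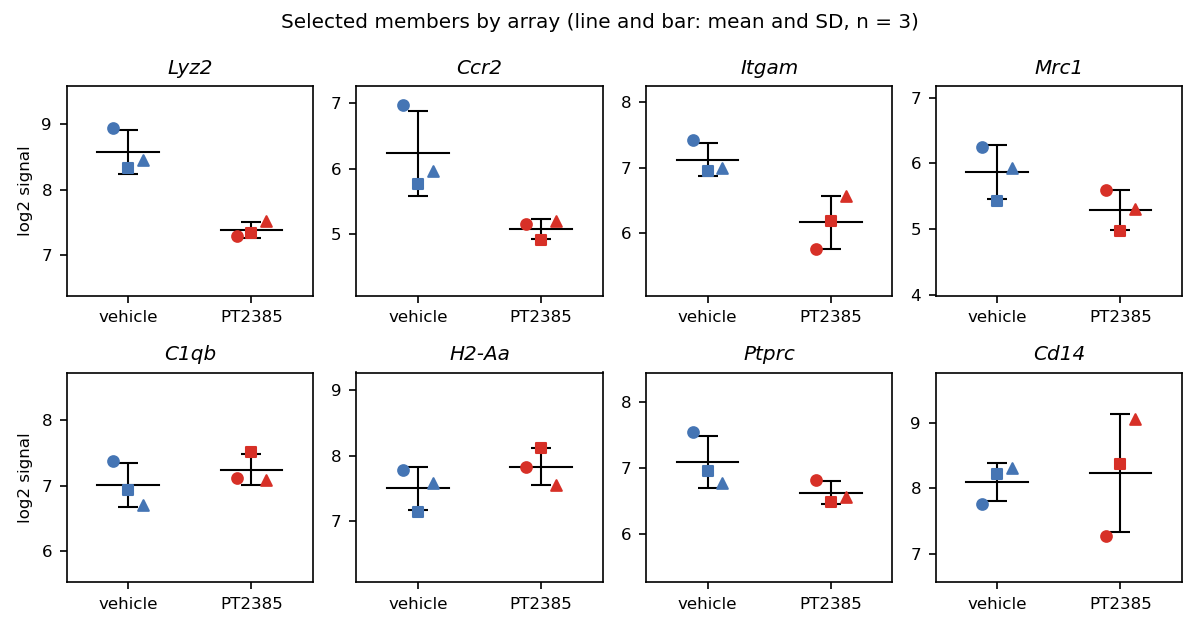
Log2 signal of 8 members by group, each panel spanning the same number of log2 units, with a symbol per array (circle, square and triangle for replicates 1, 2 and 3) and the mean and SD of 3 arrays in black. The groups do not overlap for Lyz2, Ccr2 and Itgam, they overlap for Mrc1, C1qb, H2-Aa, Ptprc and Cd14, and vehicle replicate 1 is the highest vehicle array in all panels except Cd14.

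Neutrophil genes are given beside these values. The receptor gene for granulocyte colony-stimulating factor, Csf3r, fell (6.50, 6.56 and 6.84 against 5.27, 5.65 and 5.87, difference -1.04, SE 0.16, adjusted p = 0.0326). Leaving out any 1 vehicle array or PT2385 replicate 2 ended that call (adjusted p at most 0.150). The calprotectin gene S100a8 had 6.49, 6.21 and 6.07 against 3.94, 4.62 and 5.54 (difference -1.56, adjusted p = 0.0972). It passed with array weights (adjusted p = 0.0286) and without PT2385 replicate 3 (-1.98, adjusted p = 0.00928), the omission that raised the called neutrophil genes from 1 to 3. The gelatinase gene Mmp9 had -0.64 (adjusted p = 0.0575). In the PT2385 arrays, Itgam, Cd14, Lyz2, Csf3r and S100a8 were all lowest in replicate 1 and highest in replicate 3. Lyz1 had the reverse order, and Ccr2 was lowest in replicate 2. An order across these arrays was not particular to such genes. The mean deviation of the loop and distal tubule list was 1.21, 0.56 and 0.09 in PT2385 replicates 1, 2 and 3. Of 12 measured neutrophil genes 7 had a negative difference, with a median of -0.18 that ran from -0.29 to -0.0017 when single arrays were left out. At an unadjusted p under 0.05 in limma, 5 were lower and 0 higher, beside 6.54% lower and 7.94% higher of all clusters. The groups did not overlap for 5, all with PT2385 lower, beside 9.13% of all clusters. All 12 lay at or below the 95th percentile of the negative controls in every array, and 4 had a mean below the average negative control median. Their mean log2 signal per array ran from 5.09 to 5.27 in the vehicle group and from 4.63 to 5.03 in the PT2385 group. Their part in the values of Lyz2, Itgam and Ccr2 was not tested.

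Resident-type genes showed no shared fall, but they lay largely within the range of the control rows, where changes can be understated. Of the 9 genes, 0 lay above the 95th percentile of the negative controls in all 6 arrays and 7 in none. By contrast, 3 of the 6 monocyte-type genes lay above it in all 6. Among the 9 resident-type genes, 5 had a positive and 4 a negative difference, with a median of 0.11, and 0 passed in either direction in limma. At an unadjusted p under 0.05 in that fit 1 was lower, beside 6.54% of all clusters. The C1q chain genes C1qa, C1qb and C1qc lie side by side on chromosome 4 and encode the recognition part of complement component C1. C1qb had 7.38, 6.94 and 6.71 under vehicle and 7.12, 7.51 and 7.09 under PT2385, with a difference of 0.23 (95% interval -0.19 to 0.65). C1qa differed by 0.11 (-0.24 to 0.47) and C1qc by 0.15 (-0.09 to 0.39). The groups overlapped for all 3 chains, and vehicle replicate 3 was the lowest array for each.

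The genes that identify macrophages most broadly also overlapped between the groups. Csf1r, the receptor for the macrophage growth factor CSF-1, had 7.02, 6.88 and 7.02 against 7.06, 6.78 and 6.83 (difference -0.09, 95% interval -0.34 to 0.16). Adgre1, the F4/80 antigen gene, had 5.85, 5.42 and 5.97 against 5.68, 5.74 and 5.69 (-0.05, interval -0.37 to 0.28). Cx3cr1 differed by -0.02 (interval -0.39 to 0.34). These intervals leave out a change of 2-fold in either direction on this scale, although all 3 genes lay at or below the 95th percentile of the negative controls in all 6 arrays, where changes can be understated. Ms4a7, a membrane-spanning 4A gene of mature macrophages, differed by 0.19, and the haemoglobin scavenger receptor gene Cd163 by 0.17, with adjusted p of 0.557 and 0.499.

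Mrc1, the mannose receptor gene used as a marker of tissue-repair macrophages, had a larger negative difference than the other resident-type genes. It had 6.25, 5.43 and 5.93 under vehicle and 5.59, 4.98 and 5.31 under PT2385. The groups overlapped, since vehicle replicate 2 was below PT2385 replicate 1. The difference was -0.57 (SE 0.22, adjusted p = 0.294).

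The MHC class II genes had higher means in the PT2385 group without passing the threshold. H2-Aa, the alpha chain of I-A, had 7.78, 7.15 and 7.58 against 7.83, 8.11 and 7.55 (difference 0.33, 95% interval -0.10 to 0.76, adjusted p = 0.467). H2-Ab1, its beta chain, had 8.48, 7.82 and 7.97 against 8.39, 8.40 and 7.87 (difference 0.13, interval -0.33 to 0.59). In the vehicle group both chains were highest in replicate 1 and lowest in replicate 2, and in the PT2385 group both were highest in replicate 2 and lowest in replicate 3. Without vehicle replicate 2 the difference of H2-Ab1 was 0.00 with a negative sign (-0.0027).

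Genes that load and control MHC class II, listed together with the class II chain gene H2-Eb1 (0.12), had no shared direction. Of these 10 genes, 5 had a positive and 5 a negative difference, the median was 0.01, and 0 passed in either direction in limma. At an unadjusted p under 0.05 in that fit 1 was lower, beside 6.54% of all clusters. That one was Rfx5, a factor binding the X box of these promoters, with 7.92, 7.96 and 7.85 against 7.60, 7.50 and 7.45 (difference -0.40, SE 0.09, adjusted p = 0.116). The peptide-loading gene H2-DMa had -0.31 and the gene H2-Oa, whose product restrains loading, 0.19. The vehicle replicate 1 array was the highest for 4 of the 10.

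Fc receptor genes, whose products bind antibody, and their signalling partners had small differences. Fcgr3, a low-affinity receptor for IgG, had 8.59, 8.35 and 8.26 against 8.20, 8.12 and 8.09. The groups did not overlap, yet the difference was only -0.26 (SE 0.11, adjusted p = 0.333). The high-affinity receptor gene Fcgr1 had 5.90, 5.80 and 5.93 against 5.93, 5.91 and 5.78, a difference of -0.01 (95% interval -0.22 to 0.21). The adapter genes Fcer1g and Tyrobp, which carry the signal of these and other myeloid receptors, had -0.13 and -0.10. Without vehicle replicate 1 the median of these 4 genes was -0.03 in place of -0.12.

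All 7 general phagocyte and leukocyte genes had negative differences, where 46.5% of all clusters did. Their median was -0.28, and 0 passed in limma. At an unadjusted p under 0.05 in that fit 3 were lower, beside 6.54% of all clusters. Ptprc, which encodes the leukocyte antigen CD45, had 7.55, 6.95 and 6.78 against 6.82, 6.49 and 6.55 (difference -0.47, SE 0.19, adjusted p = 0.318). Its groups overlapped, vehicle replicate 1 was far above the rest, and without that array the difference was -0.24. Cybb, the catalytic subunit of the phagocyte NADPH oxidase, on the X chromosome, differed by -0.40, and the co-stimulatory gene Cd86 by -0.27, with 5.05, 4.79 and 5.07 against 4.64, 4.76 and 4.70. Aif1 had -0.42 at signals of 3.66 to 4.76, around the negative control medians, and -0.19 without vehicle replicate 1.

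The other genes of this group were also highest in vehicle replicate 1. Ctss had 8.40, 8.09 and 7.88 against 7.77, 7.90 and 7.85. The pore-forming protein gene Mpeg1 had 7.59, 6.84 and 6.76 against 7.30, 6.79 and 6.78, and the lysosomal membrane gene Laptm5 had 7.51, 7.08 and 6.99 against 7.01, 7.21 and 7.04. Without vehicle replicate 1, 5 of the 7 were negative, the median was -0.19, and Mpeg1 (0.16) and Laptm5 (0.05) were positive.

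**Figure D4:**
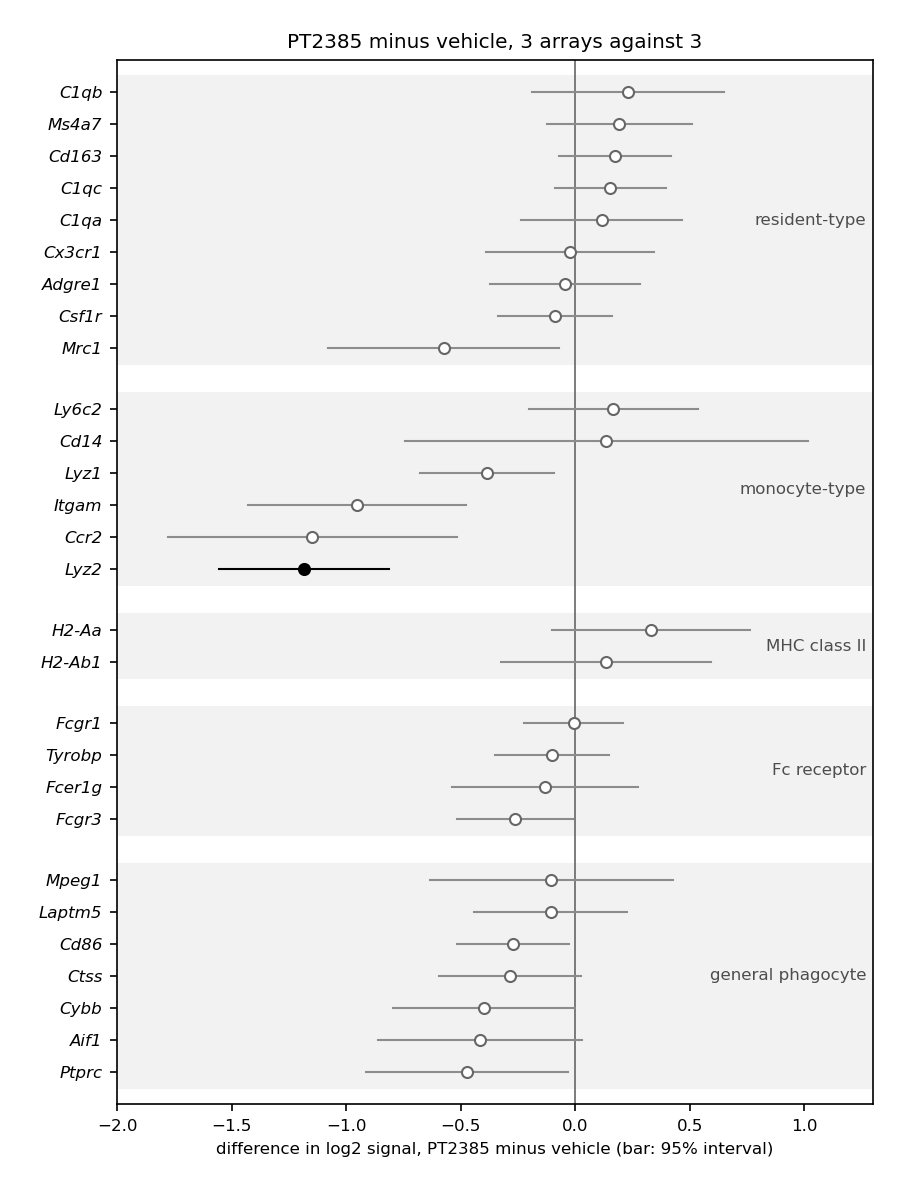
Difference in log2 signal (PT2385 minus vehicle) of each member, as a point with its 95% interval from the limma fit, grouped by role; the filled point passed the threshold. Only Lyz2 is filled, and the intervals of the resident-type genes cross 0 except that of Mrc1.

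Growth factors and regulators of macrophages were read from a separate list of 18 measured genes, in which 12 differences were negative and 1 gene passed, with a median of -0.15 (-0.04 without vehicle replicate 1). Id3, an inhibitor of DNA-binding helix-loop-helix factors, fell from 7.45, 7.86 and 7.55 to 6.80, 6.43 and 6.75 (difference -0.96, SE 0.14, adjusted p = 0.0276). Leaving out any 1 vehicle array or PT2385 replicate 2 ended the call (adjusted p at most 0.137). Id3 is expressed by many cell types. Csf1, the ligand of Csf1r, which tubular cells make, had 10.01, 10.06 and 10.08 against 9.36, 9.59 and 9.62. Its groups did not overlap, with a difference of -0.52 (SE 0.10, adjusted p = 0.0716) that passed with a trended, robust eBayes fit (adjusted p = 0.0440) and with array weights (adjusted p = 0.0364). Cebpa, a myeloid and hepatic transcription factor, had 0.27 (adjusted p = 0.260).

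Monocyte-attracting chemokines showed no difference past the threshold. Of 8 genes, 4 had a positive and 4 a negative difference, with a median of -0.01, and 0 had an unadjusted p under 0.05 in limma. The smallest p values belonged to Ccl3 (0.41), Ccl7 (-0.26) and Ccl4 (0.19), and 7 of the 8 genes lay above the 95th percentile of the negative controls in no array. Ccl7 binds Ccr2.

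Of 33 other macrophage genes 18 had a negative difference and 0 passed in limma, with a median of -0.02. At an unadjusted p under 0.05 in that fit 8 were lower, beside 6.54% of all clusters. Vehicle replicate 1 was the highest array for 17 of these 33 macrophage genes and for 4 of 13 other monocyte genes. The scavenger receptor gene Msr1 had 6.79, 6.47 and 6.41 against 5.65, 6.05 and 5.98 (difference -0.66, SE 0.14, adjusted p = 0.0969). The leukocyte gene Plek (-0.52) and the NADPH oxidase subunit gene Ncf1 (-0.36) had the next smallest p values, with adjusted p of 0.156 and 0.197.

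Of 13 other monocyte genes, 9 had a negative and 4 a positive difference, with a median of -0.14, and past the threshold 1 fell and 1 rose. Chil3, a chitinase-like protein of monocytes, macrophages and neutrophils, fell from 6.13, 6.10 and 4.99 to 3.25, 3.59 and 4.23 (difference -2.05, SE 0.33, adjusted p = 0.0376). All PT2385 arrays were below all vehicle arrays and below the negative control medians. The vehicle values too lay at or below the 95th percentile of the negative controls, a range where differences can be understated. The call was lost without vehicle replicate 1 or 2 or PT2385 replicate 1 or 2 (adjusted p up to 0.198), under a trended, robust fit (0.0619) and when the replicate number was blocked (0.0519). Fn1, which encodes fibronectin and is made by many kidney cells besides monocytes, rose from 8.42, 7.90 and 8.20 to 9.13, 9.62 and 9.36 (difference 1.20, SE 0.17, adjusted p = 0.0208). Leaving out vehicle replicate 2 or 3 or PT2385 replicate 2 ended its call (adjusted p at most 0.109). Cd177, a neutrophil surface gene placed in this list, had 0.29 (adjusted p = 0.254).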

How the data were processed

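Total RNA of 6 samples, 3 per group, was hybridised as biotin-labelled targets to Affymetrix arrays, per the labels' protocols. The authors deposited log2 signals, 1 for each transcript cluster and array. How they were summarised and normalized is not given in the sources used here. The 6640 control rows were kept out of the fit. All 22206 other clusters were fitted with limma 3.58.1 in R 4.3.3 (lmFit and eBayes, treatment as the only term, 2-sided), with Benjamini-Hochberg adjustment over all clusters and a threshold of 0.05. Intervals (95%) use the moderated variance. Clusters annotated with several symbols were treated as unnamed. Where a gene had several clusters, the brightest by mean was used. The fit was tested on simulated arrays. Members and lists were chosen with earlier results of these data known. Named genes were all members, at most 3 genes of smallest p from each other list, H2-Eb1 to describe its list, and Eif2s3y as a check of the groups. Alternatives blocked on the replicate number, changed the normalization, filter, variance prior or array weights, or left out single arrays. Separate animals are not stated for the samples of a group. The p-values therefore reflect the spread among these samples alone, which may be technical. The number of arrays limits the precision.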

Additional observations from a re-analysis of the deposited data

How the results depend on the processing

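The count of called clusters was 184 in the primary fit and 456 with array weights, and 42 to 179 when single arrays were left out (42 without PT2385 replicate 2). The count of called members, 1 in the primary fit, was 3 with array weights (Ccr2, Itgam and Lyz2) and 0 to 2 when single arrays were left out. It was 0 without vehicle replicate 3 or PT2385 replicate 2. With arrays centred on their median, 57 clusters were higher and 135 lower, against 74 and 110 in the primary fit. The cause of these changes was not tested. The median differences of the members, resident-type, monocyte-type and MHC class II genes moved by less than the spread between replicates under every alternative run. That says little about stability. Omitting 1 of 3 arrays seldom moves a median by more than this spread, and some alternatives leave the differences themselves unchanged. Over omitted arrays the medians of these lists, in the same order, ran from -0.18 to -0.01, 0.01 to 0.18, -0.78 to -0.56 and 0.07 to 0.40.

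Signs of differences near 0 turned. With array weights Cx3cr1 became 0.067 and Fcgr1 0.0098. Over omitted arrays the difference ran from -0.21 to 0.0673 for Adgre1, -0.18 to 0.11 for Cx3cr1, -0.28 to 0.62 for Cd14, -0.0441 to 0.0398 for Fcgr1, -0.31 to 0.0689 for Fcer1g, -0.21 to 0.0536 for Laptm5, -0.28 to 0.16 for Mpeg1, -0.0296 to 0.27 for Ly6c2 and -0.0027 to 0.33 for H2-Ab1. Mmp9 passed with quantile normalization (adjusted p = 0.0409), centred arrays (0.0445) and array weights (0.0310).

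Over all clusters, the replicate numbers showed no clear pairing of the arrays. Deviations from the group means correlated at 0.14, 0.03 and -0.06 for numbers 1, 2 and 3, and vehicle replicate 2 correlated best with PT2385 replicate 3 (0.24). These correlations cannot exclude pairing, because the 3 deviations of a group depend on each other. With the replicate number as a block 178 clusters and 1 member, Lyz2, were called, and among the genes named Chil3 lost its call. With this block the limma adjusted p fell for some members, such as Mrc1 (0.294 to 0.0749), and rose for others, such as Itgam (0.0974 to 0.117). Signals near the control rows limit what can be seen for many of the 28 members. Of these, 15 lay above the 95th percentile of the negative controls in no array and another 7 in only some arrays.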

Other observations

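Markers of other leukocytes were dim. Of 9 dendritic cell genes 7 were positive in difference (median 0.07) and 0 passed in limma. At an unadjusted p under 0.05 in that fit 1 was higher, beside 7.94% of all clusters. Flt3, the receptor for a growth factor of dendritic cells, had log2 signals of 3.75, 3.43 and 3.77 under vehicle and 4.10, 3.91 and 3.90 under PT2385 (difference 0.32, adjusted p = 0.288), below the negative control medians. Of 12 T and NK cell genes 9 were positive (median 0.13) and 0 had an unadjusted p under 0.05. Of 6 B cell genes 3 were positive (median -0.03). None of the genes in these 3 lists lay above the 95th percentile of the negative control rows in any array.

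Tubular markers are given for the same arrays. All 9 measured loop and distal tubule genes were positive (median 1.24) and 1 passed, the tight junction gene Cldn19 (1.24, adjusted p = 0.0259, lost without vehicle replicate 1 or 2 or PT2385 replicate 2 at adjusted p of at most 0.149). All 8 collecting duct genes were on the positive side, at a median of 0.53. Of 11 proximal tubule genes 7 were negative, with a median of -0.05, and the organic anion transporter gene Slc22a6 fell (-0.97, adjusted p = 0.00572). Without PT2385 replicate 3, 6 of the 9 loop and distal tubule genes passed, and without PT2385 replicate 1, 2 did. The part of these shifts in the values of macrophage and monocyte genes was not tested.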
